A study of Bos taurus with 16 samples.

Results

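Calcineurin, its regulator RCAN1, the NFATC transcription factors and the kinases MAP2K3 and MAP2K6 were followed in the muscles of newborn Hanwoo calves. Hanwoo is a Korean beef breed. The group held 10 of the 34109 genes listed, taken as the rows whose NCBI gene ID belongs to NFATC1, NFATC2, NFATC3, NFATC4, RCAN1, PPP3CA, PPP3CB, PPP3R1, MAP2K3 or MAP2K6. All 10 had counts in all 16 libraries. The group was chosen by measured values in part, since low NFATC2 and MAP2K6 counts in the sirloin of calves from overfed cows were already known. The sirloin diet values of the 10 genes are therefore given as a description, without a p-value.

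Round (hind limb) and sirloin muscle came from 8 male calves that were sampled right after birth, before they had taken colostrum. The dams of 4 control calves received 100% of their nutritional requirement in mid to late pregnancy, and those of 4 treated calves received 150%. Each muscle of a calf gave 1 library. Each group thus had 4 libraries, named here by diet and replicate number. Libraries of the same diet and number were taken as both muscles of 1 calf.

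Calcineurin is a phosphatase that calcium and calmodulin switch on. It strips phosphate from NFATC proteins, which then enter the nucleus, and in skeletal muscle it is known for promoting slow, oxidative fibre genes. RCAN1 binds and restrains calcineurin, and its own transcription is a known NFAT target. MAP2K3 and MAP2K6 phosphorylate p38 MAP kinases, a branch that takes part in myoblast differentiation and in stress responses.

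Total counts per library were 44473011 to 72446933 in round muscle and 44863173 to 72165291 in sirloin muscle. The 7 skeletal muscle markers matched (ACTA1, CKM, DES, MYH1, MYH2, TNNT3 and RYR1) were above 0 in every library and together held 51656 to 98404 TPM, a level scaled for transcript length and library size. Some libraries stood apart in other cell type markers. The 4 adipocyte markers reached 3762 TPM in sirloin treated 4 and at most 15.0 TPM in round muscle. The 5 fibroblast markers had their highest sum, 1471 TPM, in round control 2, and their highest sum in sirloin, 613 TPM, in treated 4. In whole muscle, fewer cells of a type and less RNA per cell cannot be told apart.

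Per transcript length, RCAN1 was the most abundant of the 10 genes and NFATC2 the least. The median RCAN1 level over 8 libraries was 359 TPM in round and 235 TPM in sirloin muscle. PPP3CB, PPP3R1 and MAP2K3 followed with medians of 62.7 to 71.1 TPM in round and 64.4 to 75.3 TPM in sirloin muscle. The next medians in round muscle were 53.7 TPM for MAP2K6, 31.9 TPM for PPP3CA, 24.3 TPM for NFATC3 and 14.01 TPM for NFATC1. In sirloin muscle NFATC3 stood ahead of PPP3CA, with 34.2 against 29.2 TPM, between MAP2K6 at 38.4 TPM and NFATC1 at 12.8 TPM. NFATC4 and NFATC2 came last in both muscles, with medians of 1.35 and 0.826 TPM in round and 1.10 and 0.719 TPM in sirloin muscle. Of the neighbours in this order, NFATC1 and NFATC4 did not overlap in either muscle, and RCAN1 and PPP3CB did not overlap in round muscle. All other neighbours overlapped between libraries, RCAN1 and PPP3CB in sirloin muscle included.

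**Figure D1:**
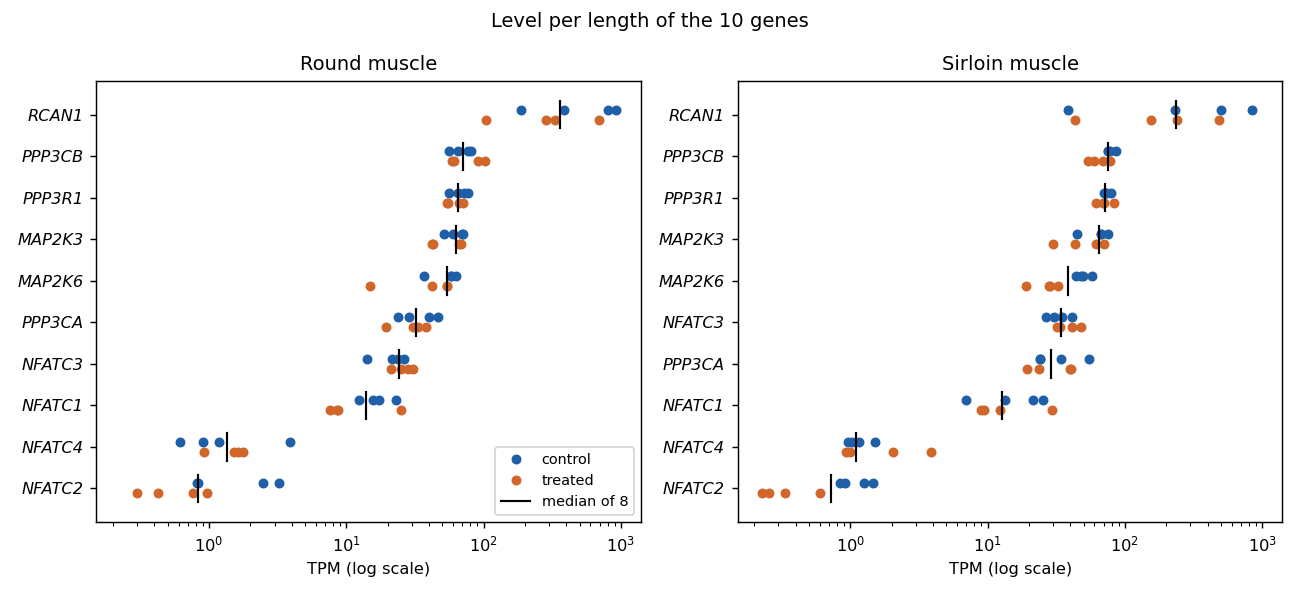
Level of each gene in TPM (log axis) in the 8 round and the 8 sirloin libraries, with genes ordered by their median (black line) and control and treated libraries as blue and orange points. RCAN1 spans 104 to 928 TPM in round and 38.5 to 836 TPM in sirloin muscle, and NFATC4 and NFATC2 lie below the other genes.

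Within families, the order of levels held in most calves. Each pair of genes was compared within a library by an exact sign-flip permutation test over the 8 calves (two-sided, log2 of TPM plus 0.1), with p-values adjusted over the 16 tests. Of the 16 comparisons, 13 passed the adjusted threshold of 0.05. The smallest p this design allows is 0.00781. This p (adjusted p = 0.0114) was reached in both muscles by NFATC1 and NFATC3 over NFATC4 and by PPP3CB over PPP3CA, in these exact tests. In round muscle NFATC1 and NFATC3 over NFATC2 reached it too. Each order held in 8 of 8 calves, and so did NFATC1 and NFATC3 over NFATC2 in sirloin muscle. Low NFATC2 and MAP2K6 in treated sirloin muscle was part of the choice of genes. The sirloin pairs of these 2 genes are therefore described without a p-value, and nothing is read from the count of 13 that includes them. The mean NFATC3 to NFATC4 ratio was 16.1 in round and 23.8 in sirloin muscle. The PPP3CA to PPP3CB ratio was 0.434 and 0.432.

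NFATC1 was below NFATC3 in all 8 sirloin muscles (ratio 0.400, exact permutation adjusted p = 0.0114). In round muscle it was below NFATC3 in 6 of 8 calves, and the difference did not pass (ratio 0.580, exact permutation p = 0.0703, adjusted p = 0.075). NFATC2 and NFATC4 could not be ordered in round muscle either (ratio 0.720, exact permutation p = 0.188). Their sirloin ratio of 0.484 holds the chosen low NFATC2 values and is given without a p-value. MAP2K3 exceeded MAP2K6 in 7 of 8 calves in each muscle, 1.31-fold in round muscle (exact permutation p = 0.0391, adjusted p = 0.0481). In sirloin muscle the ratio was 1.52, given without a p-value because the low MAP2K6 of the treated libraries was part of the choice. The round result was lost when any calf but control 4 was left out.

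Calcineurin consists of a catalytic and a regulatory subunit. PPP3CA (gene ID 286852) and PPP3CB (790867) encode catalytic subunits, and PPP3R1 (282321) encodes the calcium-binding regulatory subunit. Levels between diets are given below as TMM-normalized CPM, read counts scaled to library size after a correction for library composition and not scaled for length, listed in the order of the replicates 1 to 4. Fold changes are treated over control with their standard errors (SE).

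In round muscle, PPP3CB was 134, 94.6, 149 and 167 CPM in the control and 110.5, 150.2, 110.1 and 190.2 CPM in the treated libraries. The groups overlapped widely, with a log2 fold change of 0.04 (SE 0.266). In sirloin muscle it was 154, 142, 149 and 159 CPM in the control and 133, 88.2, 103 and 118 CPM in the treated libraries. There, every treated library was below every control library, and the log2 fold change was -0.45 (SE 0.187). On the TPM scale the sirloin groups overlapped, since treated 1 at 77.3 TPM exceeded control 1 at 75.1 TPM.

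PPP3CA varied more between calves than between diets. It ranged from 72.2 to 115 CPM in control and from 47.2 to 85.6 CPM in treated round muscle, and from 63.9 to 137 CPM in control and from 41.4 to 96.1 CPM in treated sirloin muscle. Treated 3 was the lowest library in both muscles. The log2 fold changes were -0.32 (SE 0.258) in round and -0.39 (SE 0.320) in sirloin muscle.

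PPP3R1 was the steadiest of the 10 genes. Its 16 libraries lay between 24.2 and 40.4 CPM. Its standard deviation within diets, 0.215 on the log2 scale in round and 0.140 in sirloin muscle, was larger than that of only 8.11% and 2.29% of the genes with a mean of at least 1 CPM. The log2 fold changes were -0.21 (SE 0.216) and -0.24 (SE 0.175), with overlapping groups in both muscles.

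RCAN1 (539640) was at the other extreme, and its differences between calves exceeded those between diets. In round muscle it was 1413, 234, 557 and 1211 CPM in the control and 147, 403, 923 and 403 CPM in the treated libraries. The sirloin values were 774, 52.5, 337 and 1139.5 CPM in the control and 56.9, 289, 619.6 and 200.2 CPM in the treated libraries. The highest library exceeded the lowest 9.59-fold in round and 21.7-fold in sirloin muscle, and each diet held both low and high calves. Its within-diet standard deviation of 1.14 (round) and 1.72 (sirloin) on the log2 scale was above that of 97.1% and 99.4% of genes, against medians of 0.412 and 0.380 over all genes. The log2 fold changes between diets were -0.86 (SE 0.584) in round and -0.98 (SE 0.810) in sirloin muscle. Without treated 3, the round value was -1.45, and without control 1 it was -0.51. Without treated 3 the sirloin value was -1.66, and without control 4 it was -0.41.

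Of the NFATC factors, NFATC2 (530401), known best for cytokine genes in lymphocytes and for myoblast recruitment, had the most negative fold change of the 10 genes in both muscles. In sirloin muscle it was 4.42, 3.60, 5.74 and 6.26 CPM in the control and 1.33, 2.29, 1.05 and 0.915 CPM in the treated libraries. All treated libraries were below all control libraries, on the TPM scale too, with raw counts of 63 to 113 against 196 to 337. The log2 fold change was -1.84 (SE 0.375), and -2.19 to -1.68 with any one calf left out. The value of -1.68 was the one without treated 4, the library with the high adipocyte markers.

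In round muscle NFATC2 was 11.8, 12.3, 3.79 and 3.93 CPM in the control and 1.89, 3.71, 3.11 and 1.32 CPM in the treated libraries. Control 1 and 2 stood about 3 times above the other 2 control libraries. These 2 libraries also had higher sums of smooth muscle markers (247 and 254 TPM, against 149 and 149 TPM in control 3 and 4) and macrophage markers (8.12 and 10.7 against 4.48 and 5.09 TPM). The same held for adipocyte markers (7.99 and 15.0 against 4.91 and 5.84 TPM) and endothelial markers (70.0 and 83.7 against 50.5 and 64.2 TPM). Skeletal muscle markers were higher in them as well (83254 and 62884 against 54621 and 53179.5 TPM). The pattern did not hold for fibroblast markers (271 and 1471 against 271 and 306 TPM). Nor did it hold for satellite cell (25.1 and 21.8 against 30.4 and 24.5 TPM) or T lymphocyte markers (2.68 and 2.50 against 1.57 and 2.74 TPM). The treated sums were 86.1 to 194 TPM for smooth muscle, 3.94 to 18.2 TPM for macrophage, 1.27 to 5.43 TPM for adipocyte and 54.3 to 82.0 TPM for endothelial markers. The highest macrophage sum of round muscle was that of treated 2. The part of these markers in the NFATC2 values was not tested. The NFATC2 level of the highest treated library fell just short of the lowest control library, and on the TPM scale treated 2 at 0.959 exceeded control 4 at 0.820. The log2 fold change was -1.66 (SE 0.487), and -1.40 without control 2. It did not pass the test across all genes (edgeR adjusted p = 0.864; DESeq2 adjusted p = 0.152). The round libraries came from the same calves as the sirloin libraries, and results of round muscle were known too when the genes were chosen. The 7 T lymphocyte markers summed to 1.57 to 2.74 TPM in control and 1.68 to 6.54 TPM in treated round muscle, and to 2.05 to 3.47 and 2.40 to 5.43 TPM in sirloin muscle. The part of these markers in the NFATC2 values was not tested. No T lymphocyte marker was at 0 in every library, although CD3G was at 0 in 8 and CD2 in 7 of the 16.

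NFATC1 (511224), which muscle fibres use in fibre type control, overlapped between the diets in both muscles. In round muscle it was 49.8, 30.8, 65.8 and 52.7 CPM in the control and 23.8, 20.6, 66.6 and 20.9 CPM in the treated libraries. The sirloin values were 41.1, 18.7, 74.1 and 57.9 CPM in the control and 24.4, 21.8, 77.5 and 31.0 CPM in the treated libraries. Treated 3 was the highest library in both muscles, while the other 3 treated calves were at or below 31.0 CPM. The log2 fold changes of -0.59 (SE 0.398) in round and -0.31 (SE 0.473) in sirloin muscle became -1.22 and -0.90 without treated 3.

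NFATC3 (541127), the most abundant NFATC transcript by median, overlapped between the diets in both muscles. It was 48.9, 74.1, 78.7 and 75.2 CPM in control and 90.3, 67.4, 63.9 and 97.6 CPM in treated round muscle. The sirloin libraries were at 92.9 to 137 CPM in the control and 93.8 to 131 CPM in the treated group. The log2 fold changes were 0.21 (SE 0.242) and 0.04 (SE 0.207).

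NFATC4 (788119), the other scarce factor, was 3.34, 8.42, 1.66 and 2.49 CPM in control and 4.12, 3.28, 3.95 and 2.27 CPM in treated round muscle. In sirloin the values were 2.97, 3.76, 2.59 and 2.91 CPM in the control and 4.74, 2.05, 2.31 and 8.74 CPM in the treated libraries. The 2 libraries above 8 CPM, round control 2 and sirloin treated 4, were also those with the highest fibroblast marker sums of their muscle, 1471 and 613 TPM. They also had the highest adipocyte (15.0 and 3762 TPM) and endothelial sums (83.7 and 91.2 TPM) of their muscle. Sirloin control 2 had 443 TPM of fibroblast markers, with NFATC4 at 3.76 CPM. The part of these markers in the NFATC4 values was not tested. The log2 fold change was -0.23 (SE 0.475) in round muscle and 0.42 without control 2. In sirloin muscle it was 0.54 (SE 0.451), and -0.01 without treated 4.

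Expressed as shares of the summed NFATC1 to NFATC4 TPM, NFATC3 and NFATC1 made up most of the family in every library. The median NFATC3 share was 51.3% in control and 70.8% in treated round muscle, and 61.6% and 70.2% in sirloin muscle. The median NFATC1 share was 44.7% and 23.0% in round, and 34.5% and 23.0% in sirloin muscle, with overlapping ranges. NFATC2 made up 1.85% to 2.70% of the sum in control and 0.357% to 1.03% in treated sirloin muscle. In round muscle its share was 1.73% to 7.35% in the control and 0.752% to 2.66% in the treated group. The summed TPM itself was 42.0 to 68.7 in control and 43.8 to 72.3 in treated sirloin muscle.

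**Figure D2:**
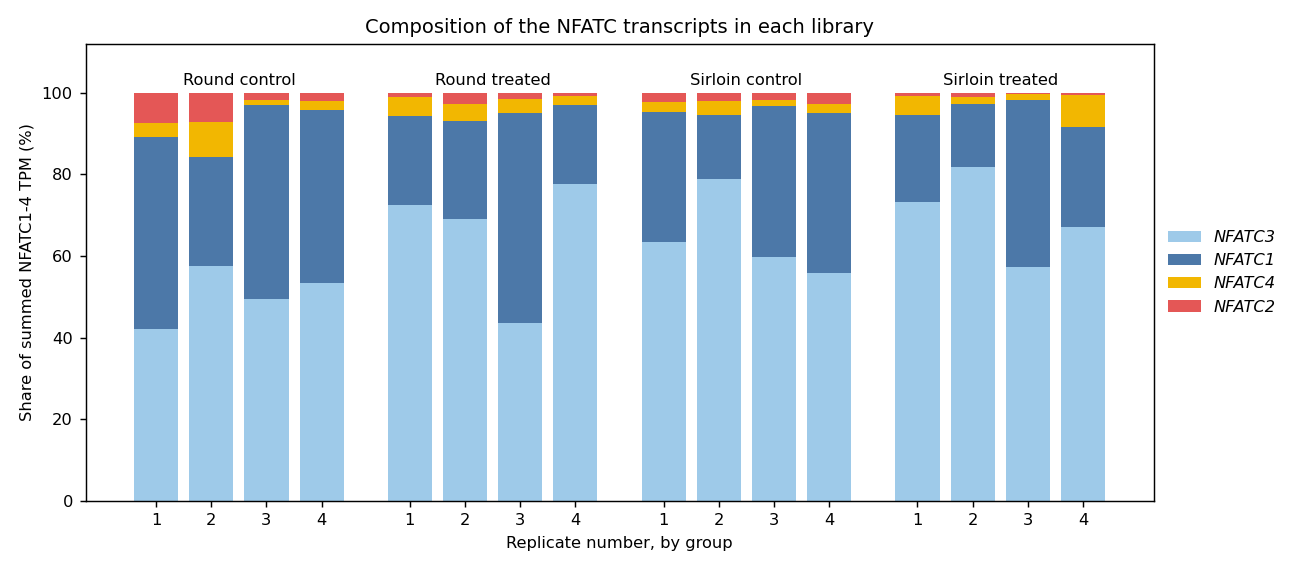
Share of each factor in the summed NFATC1 to NFATC4 TPM of every library, in percent, by group and replicate number. NFATC2 (red, top of each bar) takes at most 1.03% in the treated sirloin libraries and at least 1.85% in the control ones.

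MAP2K6 (286883), 1 of the 2 main activators of p38, had separate levels in the sirloin muscle of the diets. It was 41.1, 40.7, 44.5 and 47.6 CPM in the control and 25.5, 21.3, 22.5 and 15.3 CPM in the treated sirloin libraries. The groups did not overlap in CPM or TPM, and the log2 fold change was -1.04 (SE 0.202), with a range of -1.14 to -0.91 when any one calf was left out. The value of -0.91 was again the one without treated 4. In round muscle it was 34.0, 45.2, 54.8 and 53.1 CPM in the control and 45.7, 30.9, 43.7 and 12.7 CPM in the treated libraries. These groups overlapped. The round log2 fold change of -0.49 (SE 0.354) was -0.25 without treated 4, the lowest library in both muscles.

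MAP2K3 (516039), the other activator of p38, overlapped between the diets in both muscles. It was 84.3, 80.1, 91.8 and 71.4 CPM in control and 86.4, 47.6, 80.9 and 53.7 CPM in treated round muscle. In sirloin muscle it was 59.8 to 94.5 CPM in the control and 34.4 to 82.2 CPM in the treated libraries. The treated calves 2 and 4 were low in both muscles, at 48.2 and 34.4 CPM in sirloin, and the log2 fold changes were -0.29 (SE 0.247) and -0.48 (SE 0.286). The ratio of MAP2K6 to MAP2K3 in TPM was 0.659 to 1.11 in control and 0.459 to 0.647 in treated sirloin muscle. In round muscle it was 0.614 to 1.13 and 0.351 to 0.976.

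**Figure D3:**
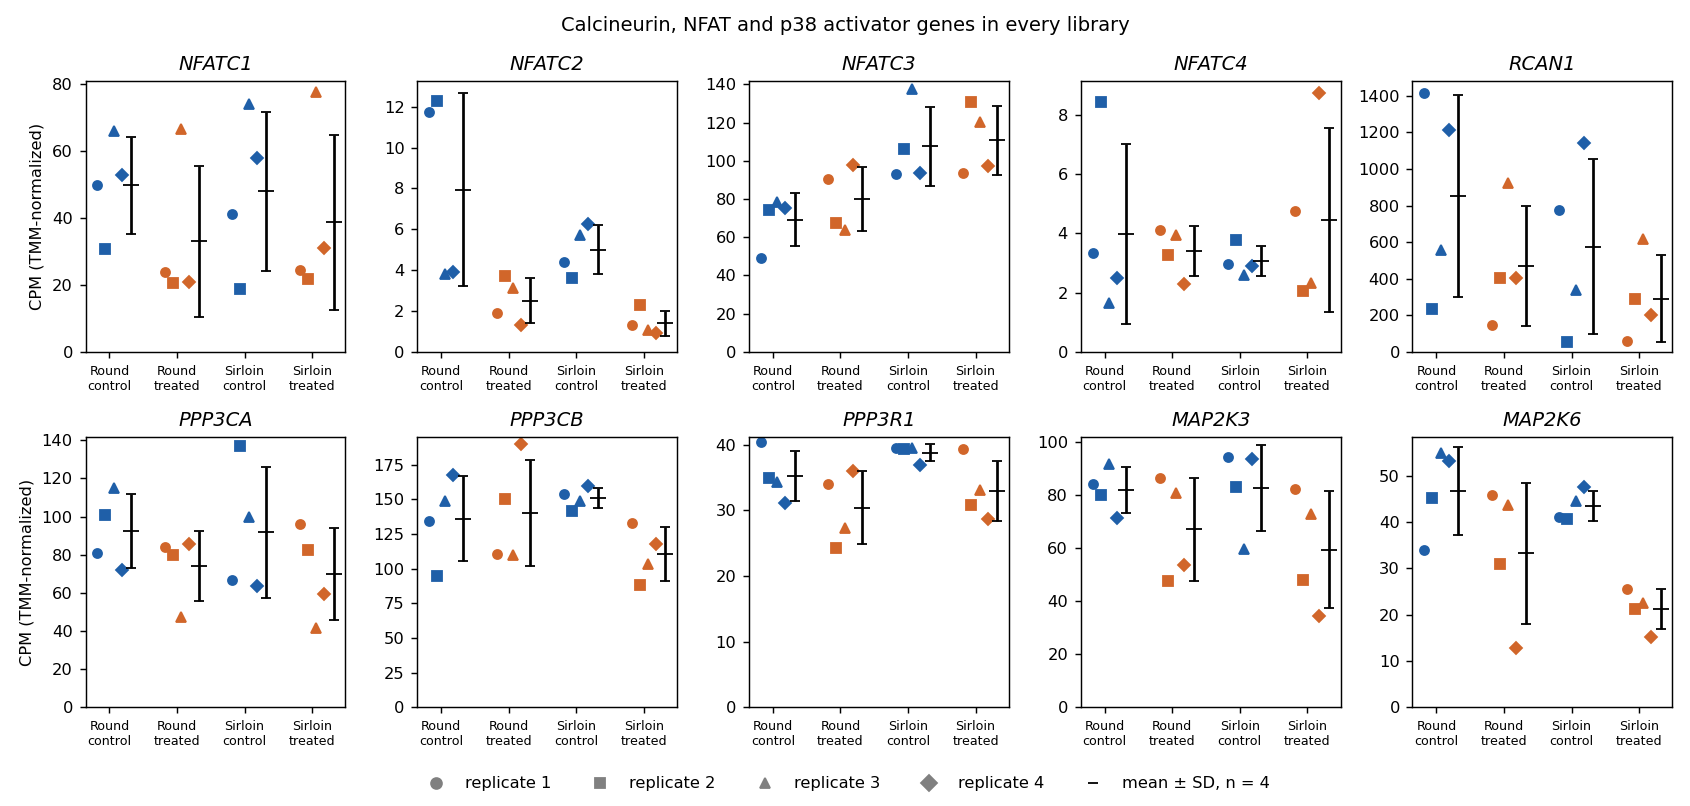
TMM-normalized CPM of the 10 genes in every library, with a symbol for each replicate number, control in blue and treated in orange, and the mean ± SD of 4 libraries in black. The treated sirloin libraries lie below all control ones for NFATC2, PPP3CB and MAP2K6, while RCAN1 and NFATC1 spread widely in every group.

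Over the group, 8 of the 10 genes had a log2 fold change below 0 in round and 8 of 10 in sirloin muscle. Their medians were -0.30 and -0.42, against 0.02 and 0.03 over all genes tested. Without overlap between the diets in CPM, 1 of 10 genes was lower in treated round muscle (NFATC2), where 0.992% of all genes were. In sirloin muscle 3 of 10 were lower without overlap (NFATC2, PPP3CB and MAP2K6), beside 0.813% of all genes. Of all genes tested, 48.1% and 47.1% were below 0 in round and sirloin muscle. The sirloin counts, here and in the counts of calls that follow, include the genes chosen for low sirloin values, and nothing is read from them. The round libraries came from the same calves and their results were known too, so the round counts are a description as well.

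None of the 10 genes passed edgeR's adjusted threshold of 0.05 in either muscle, where 0.0185% (round) and 0.00918% (sirloin) of all genes did. At an unadjusted p under 0.05, edgeR gave 1 of 10, NFATC2, in round muscle (4.41% of all genes) and 3 of 10 in sirloin muscle (3.91%). DESeq2 with adjustment gave 0 of 10 in round (0.212%) and 2 of 10, NFATC2 and MAP2K6, in sirloin muscle (0.0597%). By limma-voom with adjustment, 0 of 10 passed in round (0.00461%) and 0 of 10 in sirloin muscle (0%).

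The diet effects of the muscles were set against each other as the sirloin minus the round log2 fold change, in a single fit of 16 libraries, and again with the calf as a block, since both muscles come from the same calves. Without and with the block, the difference was -0.16 (SE 0.623) and -0.32 (SE 0.570) for NFATC2, -0.52 (SE 0.419) and -0.42 (SE 0.277) for MAP2K6, and -0.47 (SE 0.315) and -0.47 (SE 0.269) for PPP3CB. For RCAN1 it was -0.11 (SE 1.10) without the block and 0.12 (SE 0.391) with it, a change of sign. NFATC1 gave 0.30 (SE 0.673) and 0.42 (SE 0.239). The NFATC4 difference of 0.81 (SE 0.693) became 0.30 (SE 0.600) with the block and 0.07 without treated calf 4 in the fit without the block. By edgeR, 0 of 10 genes passed with adjustment without the block (0% of all genes) and 0 of 10 with it (0.00437%). At an unadjusted p under 0.05, 0 of 10 did without the block (2.78%), and DESeq2 with adjustment called 0 of 10 (0%). The effects of the muscles cannot be called alike from these values.

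Between the muscles themselves, averaged over the diets, the largest estimates were those of NFATC2, RCAN1 and NFATC3. The treated sirloin libraries, in which NFATC2 and MAP2K6 were chosen for being low, enter this contrast. These 2 genes are described without a p-value of their own and appear only in the counts of calls. The CPM values of this comparison were normalized over all 16 libraries. NFATC3 was 75.4 ± 14.9 CPM in round and 107.5 ± 17.3 CPM in sirloin muscle (mean ± SD, n = 8) and was higher in the sirloin of 7 of 8 calves. Its log2 difference of 0.51 (SE 0.151) did not pass the adjustment over all genes (edgeR adjusted p = 0.565; adjusted p = 0.124 with the calf as a block). NFATC2 was 5.32 ± 4.41 CPM in round and 3.15 ± 2.09 CPM in sirloin muscle and was lower in sirloin in 6 of 8 calves. Its log2 difference was -0.80 (SE 0.315), and -0.70 (SE 0.286) with the calf as a block.

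RCAN1 was lower in the sirloin than in the round muscle of all 8 calves, a pattern that 1.15% of all genes had. Its means were 673 ± 478 and 428 ± 377 CPM. Without the block the log2 difference was -0.67 (SE 0.554, edgeR adjusted p = 0.993). With the calf as a block, which compares the muscles within each calf, it was -0.94 (SE 0.197, edgeR adjusted p = 0.0626), just outside the threshold. MAP2K6 was lower in the sirloin of 6 of 8 calves, with a log2 difference of -0.42 (SE 0.210). It was 34.8, 46.1, 56.1 and 54.0 CPM in round and 40.7, 40.2, 43.5 and 47.1 CPM in sirloin muscle of the control calves, and 45.0, 31.2, 44.4 and 12.9 CPM against 24.9, 21.0, 22.0 and 15.4 CPM in the treated calves. The muscles overlapped within each diet. The other 6 genes had log2 differences of -0.14 to 0.09. By edgeR 0 of 10 genes passed with adjustment (0.0612% of all genes). At an unadjusted p under 0.05 there were 2 of 10, NFATC2 and NFATC3 (6.33% of all genes). With the block, again 0 of 10 passed with adjustment (0.476%), and at an unadjusted p under 0.05 there were 4 of 10 (11.2%). These 4 were NFATC2, MAP2K6, NFATC3 and RCAN1. NFATC2 and MAP2K6 carry the choice of the genes, so nothing is read from the counts that include them.

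**Figure D4:**
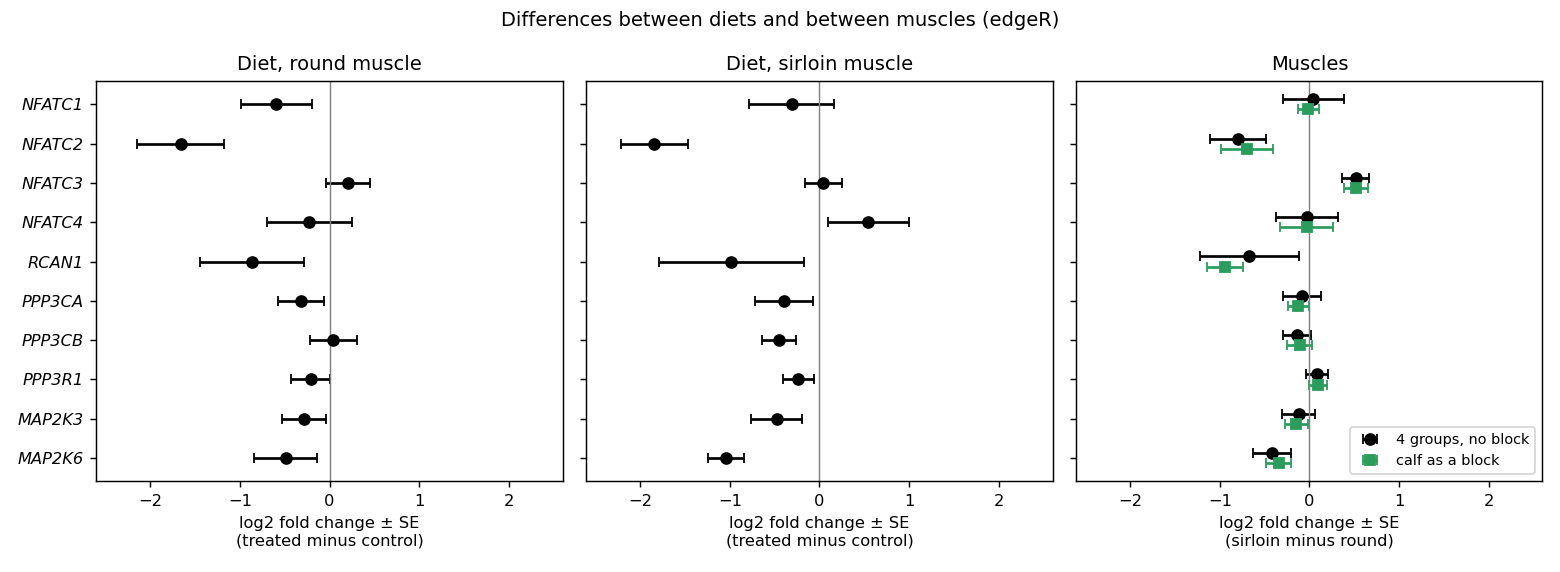
Log2 fold changes ± SE by edgeR for the diet in round muscle, the diet in sirloin muscle, and sirloin against round muscle without (black) and with (green) the calf as a block. NFATC2 is near -1.7 and -1.8 in the diet panels, and the RCAN1 error bar between muscles shrinks from 0.554 to 0.197 with the block.

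The calves stood in nearly the same order of RCAN1 in both muscles. The round and sirloin levels of a gene were correlated over the 8 calves after the diet means had been removed, with exact permutation within the diets, a test chosen after the data had been seen. For RCAN1, Pearson's r was 0.971 (exact permutation p = 0.00694, adjusted p = 0.110) and Spearman's rho 0.905 (exact permutation p = 0.0139, adjusted p = 0.172). Without the 2 calves farthest from the median, r was 0.972. For NFATC1, r was 0.926 (exact permutation p = 0.00868, adjusted p = 0.113) and rho 0.976 (exact permutation p = 0.00868, adjusted p = 0.172), with r = 0.959 without the 2 farthest calves.

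MAP2K6 gave r = 0.937 (exact permutation p = 0.0122, adjusted p = 0.120) and rho = 0.857 (exact permutation p = 0.0191, adjusted p = 0.178), but r fell to 0.579 without treated 4 and treated 2, so that the relation rested on those calves. PPP3CA gave r = 0.797 (exact permutation p = 0.0417, adjusted p = 0.167) and rho = 0.571 (exact permutation p = 0.181, adjusted p = 0.376), and r = 0.747 without the 2 farthest calves. The other 6 genes had r between -0.191 and 0.578. High values were common, since the median r over 12049 genes was 0.614. RCAN1 exceeded 99.1% of these genes, MAP2K6 96.2% and NFATC1 95.0%. Of the 10 genes, 4 had an unadjusted p under 0.05, as did 27.6% of all genes, and none of the genes tested passed with adjustment (0%).

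**Figure D5:**
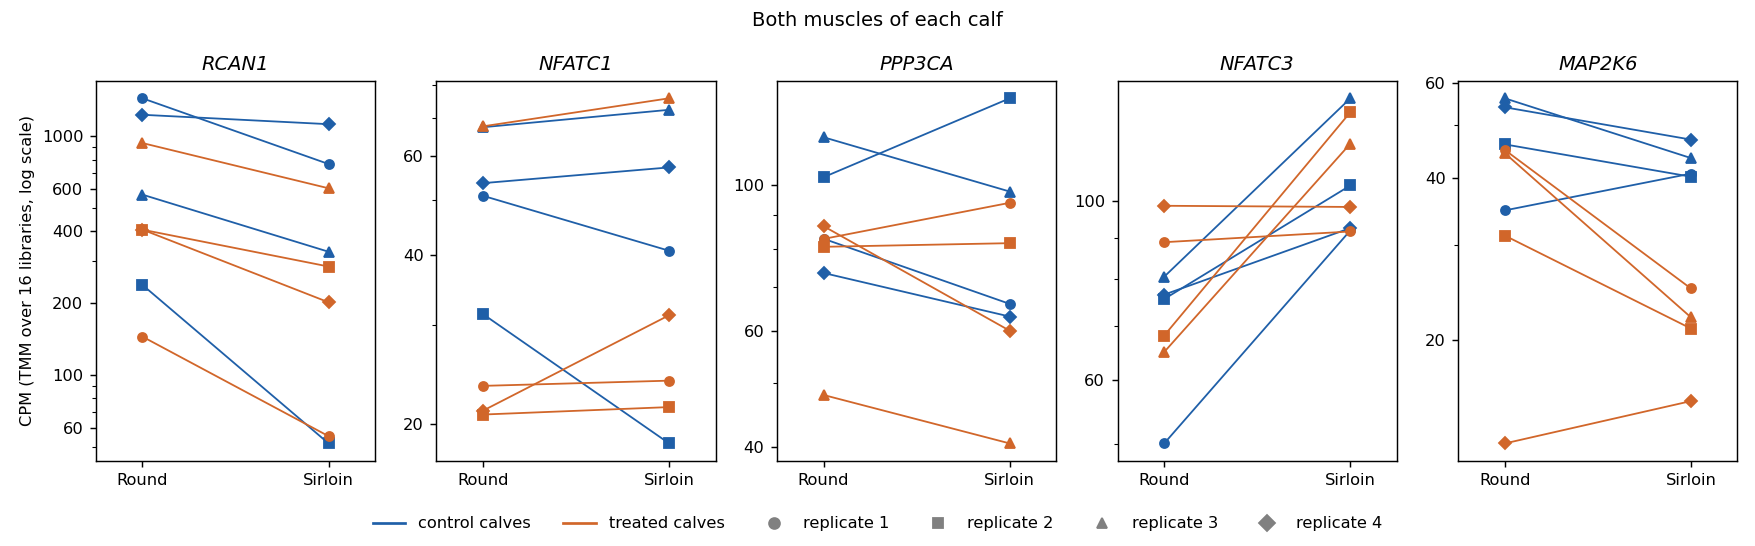
CPM (log axis, normalized over 16 libraries) of 5 genes in both muscles of each calf, joined by a line, with control calves in blue and treated calves in orange. RCAN1 is lower in sirloin than in round in all 8 calves while the calves nearly keep their order, and NFATC3 is higher in sirloin in 7 of 8.

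Around these 10 genes, 54 further pathway genes were examined in 7 lists, and all 54 were matched and tested. With adjustment, edgeR and DESeq2 called 0 of the 54 between the diets in either muscle. At an unadjusted p under 0.05, edgeR gave 5 of 54 in round muscle (4.41% of all genes) and 4 of 54 in sirloin muscle (3.91%). Of the 54, 30 had a log2 fold change below 0 in round (median -0.04) and 35 in sirloin muscle (median -0.13), where 48.1% and 47.1% of all genes were below 0.

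Of the 5 genes of round muscle, 3 had positive and 2 negative fold changes. MYH7, the slow myosin heavy chain, was 7575 ± 1661.7 CPM (mean ± SD, n = 4) in the control group and 16771 ± 14309 CPM in the treated group (log2 fold change 1.15, edgeR adjusted p = 0.864), with overlapping ranges of 5500.5 to 9488 and 5314 to 37645 CPM. TNNI1, the slow troponin I, had a log2 fold change of 1.26, with 495 to 623 CPM in the control and 351 to 2839 CPM in the treated group, and RCAN2, a relative of RCAN1, one of 1.55. DUSP16 and GADD45B, an inactivating phosphatase of MAP kinases and an upstream activator of p38, had values of -0.72 and -0.77. All 4 had the same edgeR adjusted p of 0.864, and their groups overlapped.

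In sirloin muscle myoglobin (MB), a further target, had a log2 fold change of -1.05 and MYOZ3, a calcineurin-binding protein of the Z-disc, one of -1.43 (edgeR adjusted p = 0.876 for both). The anchor AKAP5 was at -2.49 with the same adjusted p, at mean levels under 1 CPM. MAPK13, a p38 kinase, had 0 counts in the 4 treated libraries and at most 0.177 CPM in the control ones, too little for a fold change. Of the p38 kinases 3 of 4 were below 0 in round and 1 of 4 in sirloin muscle, where that 1 was MAPK13. Of the NFAT kinases with NFAT5, 5 of 7 were below 0 in each muscle. Beside the 48.1% (round) and 47.1% (sirloin) of all genes, the p38 phosphatases and downstream genes had 7 of 8 below 0 in each muscle, and the upstream activators of p38 8 of 13 in round and 7 of 13 in sirloin. For the calcineurin inhibitors and anchors, a list that also held the calcineurin subunits PPP3CC and PPP3R2, it was 4 of 11 and 6 of 11. PPP3R2 was almost absent, at mean levels of 0.0049 CPM in round and 0.0025 CPM in sirloin muscle. For the calcineurin targets the counts were 3 of 7 and 6 of 7, and for the other MAP2K kinases 0 of 4 and 3 of 4.

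For the difference between the diet effects, 3 of 54 genes had an unadjusted p under 0.05 (2.78% of all genes). They were AKAP5, TNNI1 and MB, with estimates of -4.54, -1.44 and -1.32 and an edgeR adjusted p of 1.00 each. AKAP5 was scarce, with means of 0.266 CPM in round and 0.469 CPM in sirloin muscle, and its estimate is uncertain (SE 1.56). Between the muscles, edgeR called 0 of 54 with adjustment. At an unadjusted p under 0.05 there were 3 of 54 (6.33% of all genes), GSK3B at -0.43, GADD45B at -0.61 and MAPK12 at 0.50. GSK3B, a kinase that returns NFAT to the cytoplasm, was lower in the sirloin of all 8 calves (67.1 ± 13.4 against 50.2 ± 12.2 CPM). With the calf as a block, 1 of 54 passed (0.476% of all genes), MYOZ3, which was lower in the sirloin of all 8 calves (log2 difference -0.66, edgeR adjusted p = 0.0268).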

How the data were processed

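Total RNA of round and sirloin muscle was sequenced as 16 libraries. The members and the gene lists were chosen with earlier results of these data known. According to the study's methods, libraries were made with a stranded kit that removes rRNA and globin RNA, and reads went through Trimmomatic, SortMeRNA, HISAT2, Bowtie2 and StringTie. The labels state poly(A) selection, and the submitters' processing notes list FastQC, Trimmomatic, STAR, featureCounts and DESeq2 with ARS-UCD1.2. This conflict was not settled, and it bears on how reads of overlapping or related genes were assigned. The authors deposited raw read counts per gene and TPM values per gene for 34109 gene IDs in each muscle. Their deposited tables of fold changes and p-values were not used. RefSeq's gene table for ARS-UCD2.0 gave symbols for 30762 IDs (90.2%) and was used for nothing else. The marker symbols MYLPF, ADGRE1 and PAX7 were not matched.

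Counts were tested with edgeR 4.0.16 in R 4.3.3 (TMM factors, glmQLFit, glmQLFTest, two-sided) on genes with at least 1 count in any library, 21677 in round, 21776 in sirloin and 22877 over both muscles, with Benjamini-Hochberg adjustment. Diets were compared within each muscle, without covariates. The comparison of the muscles and the difference of the diet effects used all 16 libraries in 4 groups. The SE is the log2 fold change divided by the square root of F. TMM factors were 0.932 to 1.09 in round and 0.854 to 1.13 in sirloin muscle. TPM pairs were tested on log2(TPM + 0.1), which understates differences of low genes. Correlations used log2(CPM + 0.5) and 576 permutations, and genes with a mean of at least 1 CPM. Alternatives were DESeq2 1.42.0, limma-voom (limma 3.58.1), RLE and upper-quartile factors, filterByExpr, a single fit, replicate blocks and leaving out each calf. All 10 members were named, of the other pathway genes those past the adjusted threshold or up to 6 with the smallest p per comparison, and for NFATC2 and MAP2K6 the 3 most similar genes. The edgeR, DESeq2 and limma-voom fits were tested on simulated data in their main settings and without a block. The block fits and the other alternatives were not tested in this way.

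The number in a library's label is shared by a round and a sirloin library, and it was taken as the number of the calf. After group means were removed, both muscles of a calf correlated at 0.250 to 0.595 (8 pairs), and muscles of 2 calves at -0.342 to 0.281 (56 pairs). These ranges overlap at their ends. On this basis the calf served as a block between muscles. No source gives sequencing batches.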

Additional observations from a re-analysis of the deposited data

Results flagged for a closer look

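A sample was marked where its gap to the nearest of the other 3 libraries of its group took up more of the group's range than Dixon's critical value for 4 values allows. Of 40 groups of 4 libraries, 5 were marked, and chance marks about 1 in 20. NFATC1 was 66.6 CPM in round treated 3, where the other 3 libraries were at 20.6 to 23.8 CPM. In the sirloin of the same calf NFATC1 was 77.5 CPM, and the others were at 21.8 to 31.0 CPM. PPP3CA was lowest in round treated 3, at 47.2 CPM against 79.7 to 85.6 CPM. NFATC3 was 48.9 CPM in round control 1 and 74.1 to 78.7 CPM in the other control libraries. PPP3R1 was 36.9 CPM in sirloin control 4, a small gap to the 39.3 to 39.5 CPM of the others.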

How the results depend on the processing

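Counts of genes called over the whole table depended on the tool. In round muscle edgeR called 4 genes, DESeq2 46, limma-voom 1, and edgeR with the replicate block 2, with a range of 0 to 3 when any one calf was left out. In sirloin muscle edgeR called 2, DESeq2 13, limma-voom 0, the replicate block 0, and 0 to 1 without any one calf. Across diets, equal replicate numbers marked no pairs (correlations of -0.067 to 0.188 in round and -0.154 to 0.164 in sirloin muscle), so the block there is given only here. For the difference of the diet effects edgeR called 0 (637 at an unadjusted p under 0.05) and 1 with the calf as a block. Between muscles it called 14, DESeq2 83 and edgeR with the calf as a block 109, with 13 to 19 without any one calf. The block changed no call of the 10 genes. Of the pairs of family members 13 of 16 passed, 12 to 13 without any one calf, and 5 of the 6 in which both genes had at least 1 TPM in every library. Nothing is read from the sirloin pairs of NFATC2 and MAP2K6 in these counts, since their low sirloin values were part of the choice. The log2 difference of NFATC1 between muscles, 0.04, was -0.010 with the calf as a block and -0.019 to 0.082 without any one calf. That of NFATC4, -0.03, was -0.38 to 0.24 without any one calf. The cause of these changes was not tested. Low counts limit NFATC2 and NFATC4, which had as few as 63 and 70 counts in a library.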

Other observations

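The genes whose sirloin levels over the 8 libraries were most like those of NFATC2 were gene ID 101909384 (Pearson's r = 0.973), PTPN21 (0.963) and NAB2 (0.951), out of 12269 genes with a mean of at least 1 CPM. For MAP2K6 they were gene ID 101909384 (r = 0.973), NAB2 (0.938) and PHTF2 (0.929). These correlations hold the diet difference that the genes share. In the round libraries of the same calves NAB2 was at r = 0.846 with NFATC2 and 0.715 with MAP2K6. The other genes were between -0.190 and 0.054 there. NAB2, a corepressor of EGR transcription factors, was 10.05 to 16.3 CPM in control and 2.50 to 3.45 CPM in treated sirloin muscle.

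RCAN1 was correlated with each of the other 9 genes within each muscle, over the 8 calves after the diet means were removed. The relation with PPP3CA, a catalytic subunit, is given because it had the lowest r of these in both muscles. In sirloin muscle r was -0.894 (exact permutation p = 0.00521, adjusted p = 0.181) and rho -0.881 (exact permutation p = 0.0139), with r = -0.792 without the 2 farthest calves, and 2.67% of all genes had a lower r with RCAN1. In round muscle r was -0.743 (exact permutation p = 0.0833, adjusted p = 0.583) and rho -0.690 (exact permutation p = 0.0990), with 6.30% of all genes lower. Of the 18 relations, none passed the adjustment over all genes. This comparison was added after the data had been seen.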
